A study of Homo sapiens with 6 samples.

Results

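The genes described here are 44 cyclins, cyclin-dependent kinases (CDKs), their regulators and mitosis genes, measured by RNA-seq in K562 cells. They were chosen by name and function, 17 for the passage from G1 into S phase (G1/S) and 27 for entry into and passage through mitosis (G2/M), out of 19049 genes with a symbol in the table. K562 is an established cell line from a human chronic myeloid leukemia in blast crisis and carries the Bcr-Abl fusion oncogene, which both groups therefore share. The knockdown group was K562 cells infected with a lentivirus that expresses a short hairpin RNA (shRNA) against lncRNA-IIRX (sh-lncRNA-IIRX, 3 libraries), the name that the labels give to the study's lncRNA-IUR-5. The control group carried in the same vector an shRNA against luciferase, a firefly gene that human cells lack (sh-luc, 3 libraries). Each group rests on 1 hairpin, and the study describes its 3 RNA samples as coming from independent groups of cells. The study asked how loss of this imatinib-induced RNA changes the transcriptome of Abl-transformed cells. The rows of the table are proteins, so the level of the lncRNA itself was not analysed here and the knockdown was not checked.

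In dividing cells, D cyclins activate CDK4 and CDK6, which phosphorylate the retinoblastoma protein RB1 and so release E2F transcription factors. E2F factors switch on cyclin E, cyclin A, CDC25A and many replication genes, and cyclin E with CDK2 then drives S phase, held back by inhibitors such as p27 (CDKN1B). Before mitosis, cyclins A and B with CDK1 rise together with mitotic kinases, motors and kinetochore proteins. The spindle checkpoint then restrains CDC20, the activator of the anaphase-promoting complex (APC/C), until every chromosome is attached. Many G2/M genes are repressed in G1 by the DREAM complex through a promoter element, the cell cycle genes homology region (CHR), and are activated through nearby CCAAT boxes bound by NF-Y.

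Promoter windows of 300 bases, from 250 bases before to 50 after a gene's start, were taken from RefSeq on GRCh38.p14 for the 35 of 44 genes that had a window. For 31 of the 35, the start used to place the window lay within 50 bases of the gene start in the RefSeq gene table. The exceptions were CCND3, CDKN1A, AURKB and RB1, whose window lies 172699 bases inside the gene. Each window was searched on both strands for the CHR (TTTGAA), its variant (TTTAAA), the CCAAT box (CCAAT) and E2F sites (TTTCCCGC and TTTGGCGC), and matches that overlap were each counted. The windows of 3 G2/M genes and of E2F1 are shown because they hold these motifs and belong to genes with different results in the comparison. They run 5′ to 3′ in the direction of transcription, and capitals mark CHR, CCAAT and E2F motifs on either strand.
KIF11, called higher, chr10:92592880-92593179, plus strand: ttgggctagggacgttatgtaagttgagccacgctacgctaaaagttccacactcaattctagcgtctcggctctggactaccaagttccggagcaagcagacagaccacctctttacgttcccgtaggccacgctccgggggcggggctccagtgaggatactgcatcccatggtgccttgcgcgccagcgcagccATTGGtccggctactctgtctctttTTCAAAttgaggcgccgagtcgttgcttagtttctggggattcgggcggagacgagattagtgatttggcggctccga
CDC20, called lower, chr1:43358731-43359030, plus strand: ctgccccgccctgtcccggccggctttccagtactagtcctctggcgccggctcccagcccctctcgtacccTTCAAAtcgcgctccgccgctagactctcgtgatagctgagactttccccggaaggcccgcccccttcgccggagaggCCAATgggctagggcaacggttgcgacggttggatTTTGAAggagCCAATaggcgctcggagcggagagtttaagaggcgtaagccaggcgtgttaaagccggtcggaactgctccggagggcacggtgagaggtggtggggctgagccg
CCNB2, not called, chr15:59104896-59105195, plus strand: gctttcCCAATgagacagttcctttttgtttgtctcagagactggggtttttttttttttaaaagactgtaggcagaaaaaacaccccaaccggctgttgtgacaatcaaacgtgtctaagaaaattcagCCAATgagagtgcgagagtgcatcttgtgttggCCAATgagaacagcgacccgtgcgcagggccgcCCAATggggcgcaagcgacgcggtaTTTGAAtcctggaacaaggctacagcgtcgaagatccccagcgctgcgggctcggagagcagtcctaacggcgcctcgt
E2F1, called higher, chr20:33686336-33686635, minus strand: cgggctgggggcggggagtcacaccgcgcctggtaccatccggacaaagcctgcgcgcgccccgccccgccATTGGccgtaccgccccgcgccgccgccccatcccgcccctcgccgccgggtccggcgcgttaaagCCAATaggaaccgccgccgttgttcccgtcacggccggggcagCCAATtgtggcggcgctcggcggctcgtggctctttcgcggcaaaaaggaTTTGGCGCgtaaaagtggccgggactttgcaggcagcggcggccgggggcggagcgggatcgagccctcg

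The CHR was found in 13 of 22 G2/M windows (59.1%), against 15.4% of all 27305 windows and 9.76% of the 7358 windows of genes tested. Of the 13 G1/S windows, only that of E2F3 held it. CCAAT boxes were in 16 of 22 G2/M windows (72.7%) and in 35.7% of all windows, and the CHR variant was in 9 of 22 (40.9%) and in 12.3% of all windows. E2F sites were in the windows of E2F1, E2F2, E2F3 and CDC25A, 4 of 13 G1/S genes (30.8%), in none of the 22 G2/M windows, and in 2.31% of all windows. Among the G2/M genes the CHR did not sort with the result of the knockdown comparison. It was in 4 of 8 windows of genes called higher (CDK1, BUB1B, KIF11 and KIF23), in 1 of 2 of genes called lower (CDC20), and in 8 of 12 of genes not called. These are letter matches in a fixed window, and a window without a match says nothing about the factor. The counts include the windows of CCND3, CDKN1A and RB1 that lie inside the gene, which held none of these motifs. The window of AURKB, also inside the gene, is among the 16 with a CCAAT box.

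The 6 libraries held between 21023739 and 31481109 reads assigned to protein rows, sh-lncRNA-IIRX replicate 1 being the deepest. Levels are given as TMM-scaled RPKM, reads corrected for row length and library size (RPKM) and divided by the library's TMM factor, a scaling factor that centres the bulk of rows. These factors were 0.925 to 0.938 in sh-luc and 1.05 to 1.11 in sh-lncRNA-IIRX libraries, so scaling to total reads alone lifts the median log2 fold change of all rows from 0.00 to 0.20. Every rise and fall below is relative to that TMM centre. The erythroid markers of K562 were all present (10 of 10 tested, 2 called higher and 5 lower), led by fetal globins at 5679 to 13312 TMM-scaled RPKM. Of 10 markers of other cells, 7 were below the minimum level, with MPO and MS4A1 at 0 reads in every library, while KRT8 (120 to 145 TMM-scaled RPKM) and EPCAM (82.2 to 107) were well expressed in both groups. Replicates 2 and 3 of each group share a first number in the library name (2_1 and 2_2) and replicate 1 has another. Their read counts differed by 2.24 (sh-luc) and 1.74 (sh-lncRNA-IIRX) times sampling noise, against 3.69 to 6.54 for pairs with replicate 1. Replicates 2 and 3 were kept as separate samples, as labelled, and the p-values measure the spread between these libraries. The labels do not say whether replicates 2 and 3 are separate cultures. If they are not, the p-values understate the spread between cultures.

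The levels covered a wide range. Summed over the rows of a gene, the highest were PTTG1, the securin that guards sister chromatids (475 ± 12.6 TMM-scaled RPKM in sh-luc, SD, n = 3), cyclin B1 (CCNB1, 343 ± 21.6), the survival and passenger protein survivin (BIRC5, 266 ± 4.45), CDC20 (248 ± 1.18) and topoisomerase TOP2A (240 ± 9.44). CDC20 and TOP2A lay within their spreads of each other. At the lower end stood RB1 (2.57 ± 0.240) and CDK6 (1.47 ± 0.560), while CDK4 stood at 201 ± 1.59, so K562 cells held far more CDK4 than CDK6 message. Cyclin D1 (CCND1) had 0, 3 and 6 reads in sh-luc and 12, 3 and 8 in sh-lncRNA-IIRX. The p21 gene CDKN1A had 0, 1 and 5 reads in its main row in sh-luc and 4, 5 and 2 in sh-lncRNA-IIRX. Both were below the mean RPKM of 1 needed for testing, and 3 reads on a row of 1 kilobase correspond to 0.0953 to 0.143 RPKM. Of the D cyclins, CCND3 was the most abundant (95.3 ± 5.68) and CCND2 followed (9.89 ± 0.670).

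**Figure D1:**
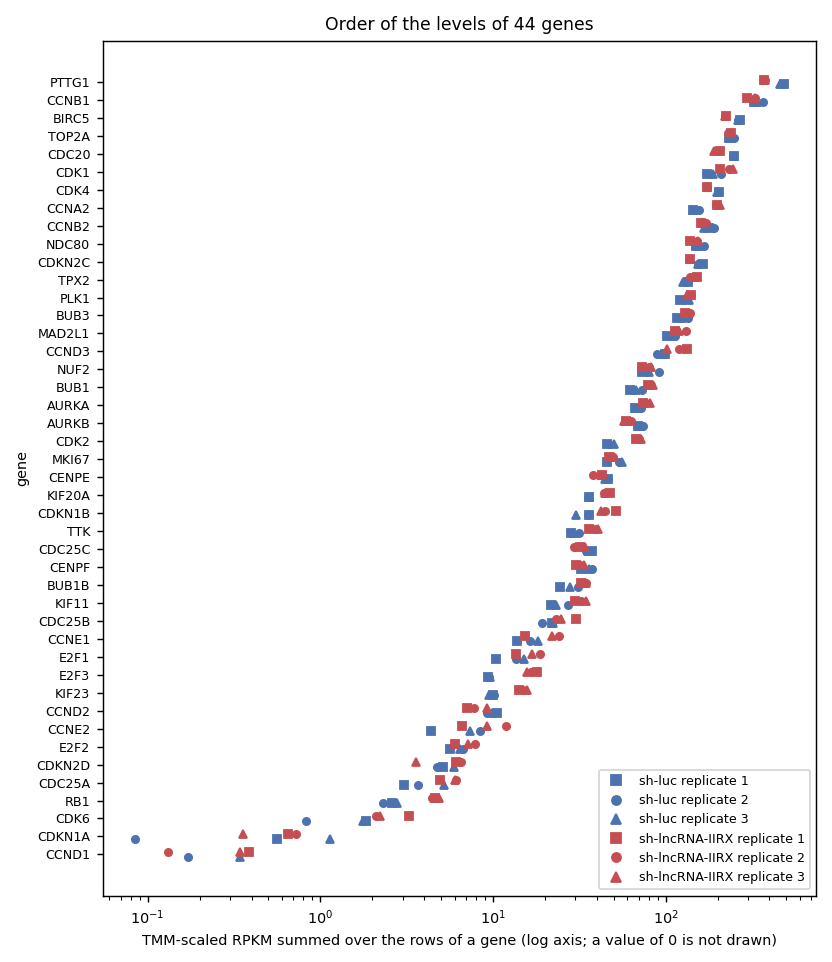
TMM-scaled RPKM summed over all rows of each of the 44 genes, on a log axis, with 1 point per library (blue, sh-luc; red, sh-lncRNA-IIRX; square, circle and triangle for replicates 1, 2 and 3). Levels run from PTTG1 and CCNB1 at the top to CDKN1A and CCND1, which are at or near the counting floor, and the range is far wider than the distance between the groups for any gene with more than a few reads.

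Of the 42 genes tested, 17 rose and 4 fell in sh-lncRNA-IIRX cells, and 21 were not called. Each gene stands for its row with the most reads, and the calls are from the quasi-likelihood test of edgeR with a Benjamini-Hochberg adjusted p below 0.05. Among all 8871 genes tested in the same way, 22.4% were called higher and 23.5% lower, so a call is common in this comparison. Scaled to total reads, 24 of the 42 were called higher and 0 lower, with 38.2% of all genes higher and 12.6% lower. Of the 15 G1/S genes tested, 8 rose (53.3%) and 1 fell, with a median log2 fold change of 0.45. Of the 27 G2/M genes, 9 rose (33.3%) and 3 fell (11.1%), with a median of 0.10, against -0.01 over all genes. The G1/S count was 4 higher without sh-luc replicate 1 or without sh-lncRNA-IIRX replicate 2, and 5 without sh-luc replicate 2. With TMM scaling none of the 42 rows changed 2-fold, whereas 1.79% of all genes were called and changed at least 2-fold. The levels of the groups did not overlap for 20 of the 42 genes, and for 54.1% of all genes tested. In bulk libraries, fewer cells of a type and less RNA per cell cannot be told apart.

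**Figure D2:**
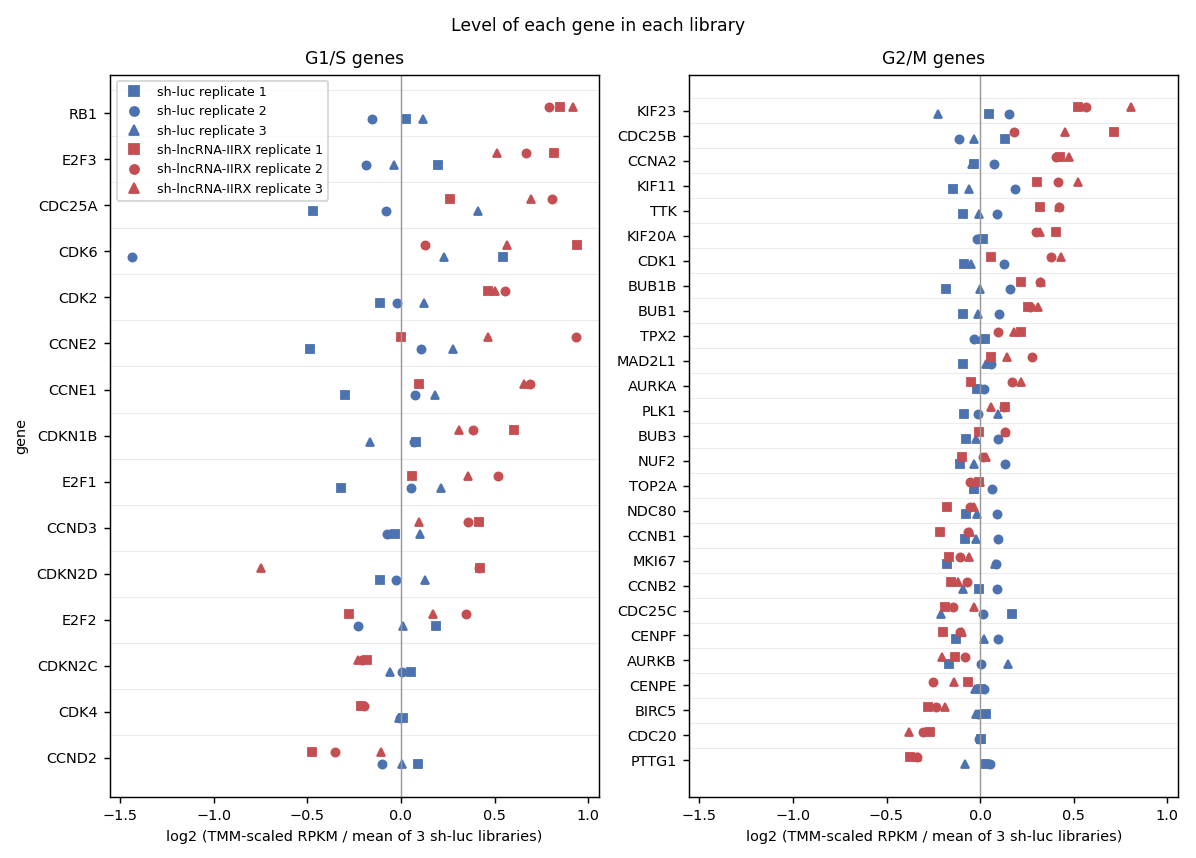
Log2 ratio of the TMM-scaled RPKM in each library to the mean of the 3 sh-luc libraries for the 42 genes tested, G1/S left and G2/M right, ordered by fold change (blue, sh-luc; red, sh-lncRNA-IIRX; square, circle and triangle for replicates 1, 2 and 3). Red points stand clear of blue for RB1, CDK2 and CCNA2 above and for CDC20 and PTTG1 below, and mix with blue for CCNB1, NUF2 and TOP2A.

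The clearest change among G1/S genes was in RB1, the pocket protein that restrains E2F (chromosome 13, 48303751 to 48481890 on hg38). Its level was 2.61, 2.31 and 2.78 TMM-scaled RPKM in sh-luc and 4.64, 4.44 and 4.85 in sh-lncRNA-IIRX. The groups were far apart, with a log2 fold change of 0.87 ± 0.11 (SE) and an edgeR adjusted p of 6.31e-06, and with scaling to total reads the rise of RB1 passed 2-fold. E2F3, an activating E2F, was at 1.75, 1.34 and 1.49 in sh-luc and at 2.68, 2.43 and 2.18 in sh-lncRNA-IIRX. It rose by 0.69 ± 0.17 on the log2 scale (edgeR adjusted p = 0.0036), and all 7 of its rows were called higher, 2 of them at least 2-fold (1.00 and 1.13). Rows of a gene share reads, so their agreement is not separate support. With the GC content and transcript length trends removed, E2F3 stood at 0.45 with an edgeR adjusted p of 0.054.

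E2F1, the best known activating E2F, was at 10.5, 13.6 and 15.2 in sh-luc and at 13.7, 18.8 and 16.8 in sh-lncRNA-IIRX. Its groups overlapped, and its rise of 0.34 ± 0.13 passed the threshold narrowly (edgeR adjusted p = 0.046). The call was lost in DESeq2 (0.33), with DESeq2 size factors in edgeR (0.33), with the row length trend removed (0.30), with reads summed per gene (0.36), and without sh-luc replicate 1 (0.20) or 2 (0.37) or sh-lncRNA-IIRX replicate 2 (0.23) or 3 (0.32). E2F2 was not called (0.09 ± 0.19). CDC25A, the phosphatase that activates CDK2, was at 1.52, 2.0 and 2.80 in sh-luc and at 2.53, 3.69 and 3.41 in sh-lncRNA-IIRX. Its rise of 0.61 ± 0.19 (edgeR adjusted p = 0.016) rested on overlapping groups and was not called without sh-luc replicate 1 (0.42) or 2 (0.58) or sh-lncRNA-IIRX replicate 2 (0.50), nor with the GC content and transcript length trends removed (0.48).

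CDK2 rose, and CDK4 fell with TMM scaling but not with scaling to total reads. CDK2, the partner of cyclins E and A (chromosome 12, 55966830 to 55972789), was at 16.8, 17.8 and 19.7 in sh-luc and at 25, 26.6 and 25.6 in sh-lncRNA-IIRX. The groups did not overlap, and CDK2 rose by 0.52 ± 0.09 on the log2 scale (edgeR adjusted p = 0.00027). All 4 of its rows, which share reads, were called higher. CDK4, the partner of D cyclins (chromosome 12, 57747727 to 57752310), was at 203, 200.2 and 199.8 in sh-luc and at 173, 175 and 174 in sh-lncRNA-IIRX. These values are tight and do not overlap, yet the difference was small, with a log2 fold change of -0.19 ± 0.07 (edgeR adjusted p = 0.031), and it was 0.00 when the libraries were scaled to total reads. The CDK4 call was also lost with the GC content and length trends removed (-0.08), and without any sh-luc replicate or sh-lncRNA-IIRX replicate 2 or 3 (-0.20 to -0.19). CDK6 was at 1.22, 0.310 and 0.982 in sh-luc and at 1.61, 0.915 and 1.24 in sh-lncRNA-IIRX, and the overlapping values were not called (0.60 ± 0.33, edgeR adjusted p = 0.16). With the reads of both of its rows summed, CDK6 was called higher (0.83, edgeR adjusted p = 0.034).

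Among the G1 cyclins, cyclin E1 (CCNE1) was at 3.18, 4.11 and 4.44 in sh-luc and at 4.18, 6.30 and 6.18 in sh-lncRNA-IIRX. Replicate 1 was the lowest of each group, the groups overlapped, and the rise of 0.51 ± 0.16 (edgeR adjusted p = 0.019) was lost without sh-luc replicate 1 (0.37) or sh-lncRNA-IIRX replicate 2 (0.41) or 3 (0.42), and with reads summed over its rows (0.38, edgeR adjusted p = 0.064). Cyclin E2 (CCNE2) had a log2 fold change of similar size (0.51 ± 0.23) and was not called. It was called higher in 8 of 18 alternatives, among them scaling to total reads (0.71), all accessions with any read (0.46) and the fits without sh-lncRNA-IIRX replicate 1 (0.74) or both replicate 1 libraries (0.54). CCND3 rose by 0.31 ± 0.10 (edgeR adjusted p = 0.020), from 20.6 to 23.2 in sh-luc to 23.2 to 28.9 in sh-lncRNA-IIRX, and the groups overlapped. Its call was lost without sh-luc replicate 1 (0.30) or 2 (0.28) or sh-lncRNA-IIRX replicate 1 (0.25) or 2 (0.28). CCND2 was lower in each sh-lncRNA-IIRX library (7.11, 7.76 and 9.19) than in any sh-luc library (10.5, 9.21 and 9.91) and missed the threshold (-0.30 ± 0.12, edgeR adjusted p = 0.058), and it was called lower without sh-lncRNA-IIRX replicate 3 (-0.41), with the GC content and transcript length trends removed (-0.54), with all accessions that had any read (-0.35) and in the fit blocked on replicate number (-0.30).

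The inhibitors also differed among themselves. CDKN1B, which encodes p27 and binds cyclin E with CDK2, was at 36.0, 35.7 and 30.3 in sh-luc and at 51.6, 44.4 and 42.2 in sh-lncRNA-IIRX. It rose by 0.45 ± 0.10 (edgeR adjusted p = 0.0017) with no overlap, so that message for CDK2 and for its inhibitor was higher in the same libraries. The p18 gene CDKN2C, an inhibitor of CDK4 and CDK6, was at 82.4, 79.8 and 76.3 in sh-luc and at 70.0, 68.9 and 67.8 in sh-lncRNA-IIRX and was not called (-0.19 ± 0.08, edgeR adjusted p = 0.063). CDKN2D (p19) was at 1.6 to 3.60 over the 6 libraries and was not called.

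**Figure D3:**
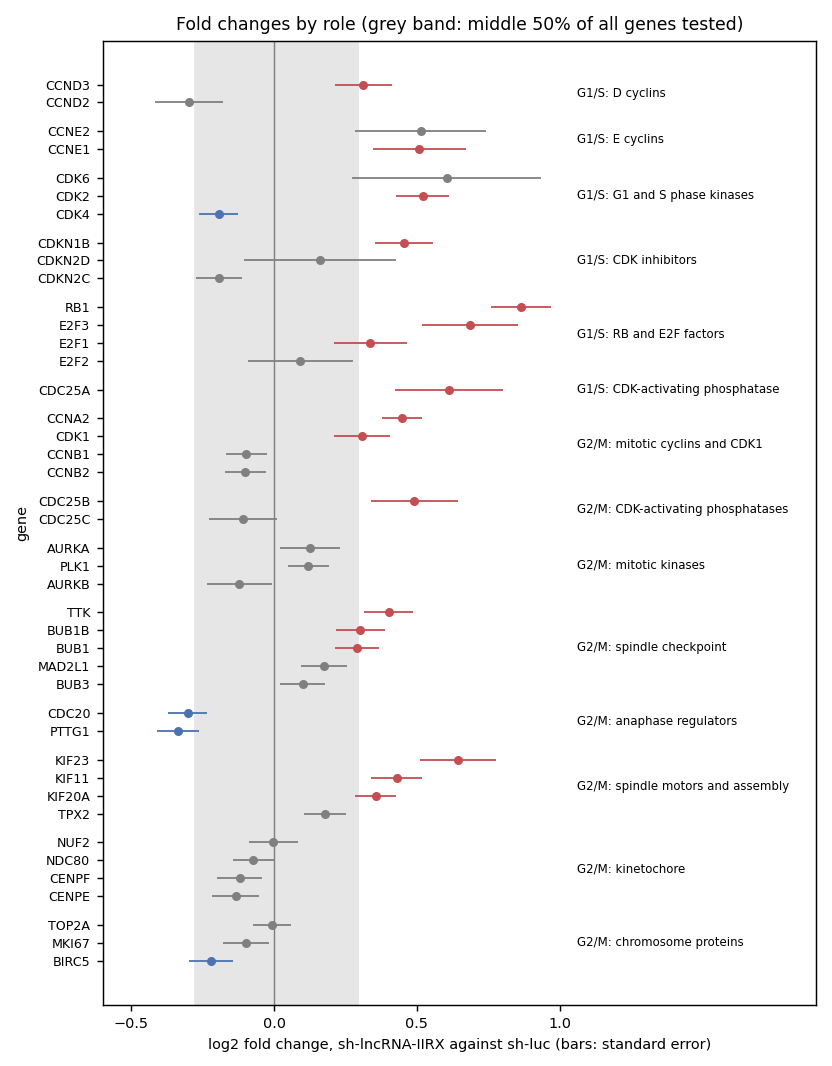
Log2 fold change (TMM scaling) of sh-lncRNA-IIRX against sh-luc with its standard error for the 42 genes tested, grouped by role (red, called higher; blue, called lower; grey, not called); none of the blue points is called with scaling to total reads. The grey band spans the middle 50% of all genes tested, from -0.28 to 0.29, and all of the kinetochore genes and all 3 mitotic kinases lie inside it.

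Among the mitotic cyclins, cyclin A2 rose and the B cyclins did not. CCNA2, which acts with CDK2 in S phase and with CDK1 in G2 (chromosome 4, 121816444 to 121823883), was at 145, 157 and 144 in sh-luc and at 199.6, 197 and 207 in sh-lncRNA-IIRX. The gap between the groups was wide, with a log2 fold change of 0.45 ± 0.07 (edgeR adjusted p = 7.14e-05). CCNB1 was at 324, 367 and 338 in sh-luc and at 295, 328 and 329.8 in sh-lncRNA-IIRX, and CCNB2 had nearly the same log2 difference (both -0.10 ± 0.07, not called). CDK1, their catalytic partner, was at 40.5, 47.1 and 41.6 in sh-luc and at 44.8, 55.9 and 58.1 in sh-lncRNA-IIRX. It was called higher (0.31 ± 0.10, edgeR adjusted p = 0.019), but the groups overlapped through replicate 1 and the call was lost without sh-luc replicate 1 (0.27) or 3 (0.29) or sh-lncRNA-IIRX replicate 2 (0.27) or 3 (0.24). CDC25B, a phosphatase that activates CDK1, was at 2.38, 2.01 and 2.12 in sh-luc and at 3.57, 2.46 and 2.97 in sh-lncRNA-IIRX. The groups did not overlap, and it rose by 0.49 ± 0.15 (edgeR adjusted p = 0.017). Its call was lost without sh-luc replicate 2 (0.44) or 3 (0.47) or sh-lncRNA-IIRX replicate 1 (0.33), and CDC25C was not called (-0.11 ± 0.12).

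Of the 5 spindle checkpoint genes, 3 rose. TTK, which starts the spindle checkpoint at unattached kinetochores, was at 9.46, 10.7 and 10.0 in sh-luc and at 12.6, 13.5 and 13.5 in sh-lncRNA-IIRX (log2 fold change 0.40 ± 0.09, edgeR adjusted p = 0.0012). BUB1 (0.29 ± 0.08) and BUB1B (0.30 ± 0.09) rose as well, each without overlap between the groups. Both lost their calls when the trend on row length was removed (0.11 and 0.13) and when the GC content and transcript length trends were removed (0.06 and 0.09), and BUB1B also without sh-luc replicate 1 (0.22). MAD2L1 and BUB3, the other checkpoint members, were at 102 to 131 and 64.2 to 74.1 over the 6 libraries and were not called, although both were called higher with scaling to total reads (0.37 and 0.29) and MAD2L1 in 9 of 19 alternatives in all, among them a mean RPKM of at least 5 (0.29), the row length trend removed (0.26) and the fit without sh-lncRNA-IIRX replicate 1 (0.23). With the GC content and transcript length trends removed MAD2L1 stood at -0.16 and was not called.

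CDC20, PTTG1 and BIRC5 fell with TMM scaling, and not when the libraries were scaled to total reads. CDC20, the activator of the APC/C (chromosome 1, 43358981 to 43363203), was at 249, 247 and 249 in sh-luc and at 207, 201 and 191 in sh-lncRNA-IIRX. PTTG1, the securin that the APC/C destroys, was at 163, 166 and 151 in sh-luc and at 123, 126 and 126 in sh-lncRNA-IIRX. Neither gene's groups overlapped, and the log2 fold changes were -0.30 ± 0.07 for CDC20 (edgeR adjusted p = 0.0018) and -0.34 ± 0.07 for PTTG1 (edgeR adjusted p = 0.0015). PTTG1 has near-identical copies in the genome that could share its reads. BIRC5 was at 113, 109 and 108 in sh-luc and at 90.8, 93.6 and 96.8 in sh-lncRNA-IIRX, and its log2 fold change of -0.22 ± 0.08 (edgeR adjusted p = 0.032) lost its call when any 1 library was left out (-0.25 to -0.20). Scaled to total reads, none of the 3 was called lower (-0.11 for CDC20, -0.14 for PTTG1 and -0.03 for BIRC5), and with the GC content and transcript length trends removed CDC20 (-0.09) and PTTG1 (0.03) were not called either.

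Of the spindle genes, the motors rose and the assembly factor TPX2 did not pass. KIF23, a kinesin of the central spindle in cytokinesis, was at 1.83, 1.97 and 1.52 in sh-luc and at 2.55, 2.63 and 3.10 in sh-lncRNA-IIRX (log2 fold change 0.64 ± 0.13, edgeR adjusted p = 0.00099). All 7 of its rows, which share reads, were called higher. KIF11, the kinesin that pushes spindle poles apart, was at 21.8, 27.4 and 23.1 in sh-luc and at 29.8, 32.2 and 34.6 in sh-lncRNA-IIRX (0.43 ± 0.09, edgeR adjusted p = 0.0010). Its call was lost with the GC content and transcript length trends removed (0.11). KIF20A, another cytokinesis kinesin, rose by 0.36 ± 0.07 (edgeR adjusted p = 0.00081), from 35.4 to 36.2 in sh-luc to 44.2 to 47.5 in sh-lncRNA-IIRX. The groups of these 3 motors did not overlap. TPX2 was also higher in each sh-lncRNA-IIRX library (36.0 to 39.2) than in any sh-luc library (33.0 to 34.4) and was not called (0.18 ± 0.07, edgeR adjusted p = 0.066). It was called higher in 8 of 19 alternatives, among them reads summed over its 4 rows (0.20, edgeR adjusted p = 0.025), scaling to total reads (0.37) and a mean RPKM of at least 5 (0.29).

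The kinetochore proteins NDC80, NUF2, CENPE and CENPF were not called, with log2 fold changes from -0.14 to -0.00. NDC80 was at 150, 167 and 156 in sh-luc and at 139, 152 and 154 in sh-lncRNA-IIRX, levels that overlapped. The proliferation marker MKI67 was at 11.1, 13.3 and 13.2 in sh-luc and at 11.2, 11.6 and 12 in sh-lncRNA-IIRX, and was not called either (-0.10 ± 0.08, edgeR adjusted p = 0.36). TOP2A, which untangles sister DNA, stood at -0.01 ± 0.07. A missed threshold does not show that these levels were equal. With the GC content and transcript length trends removed, CENPE (-0.42), CENPF (-0.35) and TOP2A (-0.34) were called lower. With the row length trend removed MKI67 (-0.26), TOP2A (-0.20), CENPE and CENPF were called lower. MKI67 was also called lower without both replicate 1 libraries. With scaling to total reads TOP2A was instead called higher (0.19, edgeR adjusted p = 0.017), as it was with limma on RPKM, so its direction depended on the treatment of the counts.

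The calls of the mitotic kinases depended on how rows were summed and on how the counts were treated. The table lists 9 rows for AURKA, the kinase of spindle poles, and 11 for AURKB, the kinase of the chromosomal passenger complex. Their main rows held 11.6% and 13.7% of the gene's reads, and neither gene was called (0.13 ± 0.10 and -0.12 ± 0.11). Summed over rows, AURKA was at 66.4, 71.8 and 68.5 TMM-scaled RPKM in sh-luc and at 73.6, 76.8 and 81.7 in sh-lncRNA-IIRX, and AURKB was at 68.9, 74.3 and 71.1 in sh-luc and at 59.4, 62.9 and 57.6 in sh-lncRNA-IIRX. The groups then did not overlap for either gene, and the test on summed reads called AURKA higher (0.20 ± 0.07, edgeR adjusted p = 0.032) and AURKB lower (-0.21 ± 0.07, edgeR adjusted p = 0.033). PLK1, the kinase that works at both poles and kinetochores and has 1 row, was at 121 to 141 and was not called (0.12 ± 0.07), although scaling to total reads called it (0.31) and the main row of AURKA (0.32) higher, as did limma on RPKM. PLK1 was also called higher with a mean RPKM of at least 5 and with the GC content and transcript length trends removed. With these trends removed the main row of AURKB stood at 0.20 and was not called. Over all 44 genes the table has 155 rows. Of the 25 genes with more than 1 tested row, 17 had the same call in every row and 0 had rows called in opposite directions.

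Ratios between genes in a library do not depend on the scaling of libraries. Their numerators and denominators were chosen after the values had been seen. The ratios can still carry trends on GC content and length, which were not removed from them. With those trends removed, the log2 fold changes of KIF11 (0.11) and of the main row of AURKB (0.20) were not called. CDK2, CDK1 and CCNA2 were still called higher. Except for AURKA and AURKB, each gene entered with its row with the most reads. That row held 38.2% of the reads of CDK2 and 26.6% of those of CDK1, while CDK4 and CCNB1 have 1 row. The ratios with CDK2 and CDK1 are therefore not ratios of whole-gene levels. The CDK2 to CDK4 ratio of RPKM was 0.0827, 0.0889 and 0.0987 in sh-luc and 0.144, 0.152 and 0.147 in sh-lncRNA-IIRX, 1.64 times as high on average. The CCNA2 to CCNB1 ratio was 0.448, 0.427 and 0.427 in sh-luc and 0.676, 0.601 and 0.628 in sh-lncRNA-IIRX (1.46 times), so cyclin A2 gained relative to cyclin B1. The CDK1 to CCNB1 ratio (0.126 ± 0.00267 against 0.166 ± 0.0128, SD, n = 3) and the KIF11 to NDC80 ratio (0.153 ± 0.00974 against 0.217 ± 0.00689) were 1.32 and 1.42 times as high in sh-lncRNA-IIRX. The AURKA to AURKB ratio of summed RPKM was 0.964, 0.967 and 0.963 in sh-luc and 1.24, 1.22 and 1.42 in sh-lncRNA-IIRX. None of these 5 ratios overlapped between the groups, each with a two-sided exact permutation p of 0.1, the smallest that 3 against 3 libraries allow (0.12 after Benjamini-Hochberg adjustment over 6 ratios). As the pairs were chosen with these values known, the p-values describe the separation and do not test it. The CDC20 to CCNB1 ratio overlapped (0.726 ± 0.0480 in sh-luc and 0.631 ± 0.0623 in sh-lncRNA-IIRX, exact permutation p = 0.2).

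The replicate 1 libraries were set against the others. Replicate 1 was the lowest of both groups for 18 of the 42 genes (42.9%), among them CCNE1 and CDK1, and for 22.4% of all genes tested. Of the 42 genes, 28 were higher in sh-lncRNA-IIRX replicate 1 than in sh-luc replicate 1, and for 22 replicates 2 and 3 of sh-lncRNA-IIRX lay above replicates 2 and 3 of sh-luc. Over all 8871 genes tested these counts were 4338 and 3034. Among the 17 genes called higher they were 17 and 16, which is a description only, since the same libraries gave the calls.

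Genes called higher and genes called lower differed in length, base composition and level, here over only 4 genes on the lower side. The 17 genes called higher had a median row length of 1575 bases and a median transcript GC content of 45.9%, and the 4 called lower had 760.5 bases and 51.6%. Over all genes tested these medians were 1629 bases and 42.6% for genes called higher and 837 bases and 53.0% for genes called lower. The median level was 21.9 TMM-scaled RPKM for the 17 and 165 for the 4, against 5.18 and 32.2 over all genes. The 21 genes not called had a median GC content of 44.4% and a level of 12.1, both below those of the 17, whereas over all genes those not called (49.8% and 5.86) lay above those called higher. The part of length and base composition in the results was not tested beyond removing their trends. Of the 21 calls, 7 held in every alternative treatment of the counts in which the gene was tested, namely CDK2, CDKN1B, RB1, CCNA2, TTK, KIF23 and KIF20A, and 12 held in all 6 fits that leave out 1 library.

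Other genes of the same pathways were taken from 7 lists made by function, with 135 genes tested, of which 48 rose and 26 fell with TMM scaling, and 78 rose and 5 fell with scaling to total reads. With TMM scaling these are 35.6% and 19.3%, beside 22.4% and 23.5% of all genes tested, and with scaling to total reads 57.8% and 3.7%, beside 38.2% and 12.6%. The 14 rises named here were called with either scaling. Of the 13 named falls, those of ANAPC11, SGO1, SPC24 and CHEK2 were still called with scaling to total reads, and the other 9 were not. With the GC content and transcript length trends removed, 12 of the 14 rises (not PPP2R2A and RBL1) and 5 of the 13 falls were called. Of the 135 genes, 29 then rose (21.5%) and 19 fell (14.1%), beside 15.5% and 17.5% of all genes tested. For the APC/C and its regulators, 4 of 18 rose and 4 fell with TMM scaling (22.2% each), shares near those of all genes. The subunit CDC23 (0.68 ± 0.09) and the APC/C inhibitor FBXO5 (0.66 ± 0.10) had the largest rises. Among called genes the small subunits ANAPC15 (-0.54 ± 0.14) and ANAPC11 (-0.46 ± 0.08) had the largest falls, while UBE2C (-0.66 ± 0.32) was not called. Of 14 DREAM and E2F partner genes, 5 rose and 1 fell. Both other pocket proteins rose with RB1, RBL2 (p130) by 0.86 ± 0.11 and RBL1 (p107) by 0.61 ± 0.18, and the DREAM subunit LIN37 fell (-0.38 ± 0.11). RBL2 was at 1.82, 1.91 and 2.0 TMM-scaled RPKM in sh-luc and at 3.82, 3.27 and 3.18 in sh-lncRNA-IIRX, which did not overlap.

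Of 21 cohesin and condensin genes, 8 rose and 3 fell with TMM scaling. With scaling to total reads 14 rose and 1 fell, and with the GC content and transcript length trends removed 4 rose and 6 fell. With TMM scaling RAD21, the cleavable cohesin ring subunit (0.72 ± 0.07), and the cohesin regulator PDS5A (0.72 ± 0.09) were at the top. Shugoshin SGO1 (-0.61 ± 0.12) and NCAPH2 (-0.36 ± 0.09) were at the bottom. Of 29 other kinetochore genes, 7 rose (24.1%) and 8 fell (27.6%), again near the shares of all genes, led by ZWILCH (0.68 ± 0.11) and ZW10 (0.40 ± 0.10), which act in the same checkpoint complex, and by SPC24 (-0.62 ± 0.09), a partner of NDC80, and MAD1L1 (-0.43 ± 0.14). The spindle and cytokinesis list had 11 of 20 higher and 2 lower with TMM scaling. These counts were 17 and 0 with scaling to total reads, and 6 and 1 with the GC content and transcript length trends removed. The cytokinetic ring protein ANLN rose 2-fold (1.02 ± 0.12, from 1.69, 2.34 and 1.8 to 3.70, 3.82 and 4.17 TMM-scaled RPKM). RACGAP1, which binds KIF23 in the central spindle, rose by 0.80 ± 0.14, while TACC3 (-0.32 ± 0.08) and KIF22 (-0.21 ± 0.08) fell.

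Of 15 genes that control CDKs, 3 rose and 6 fell with TMM scaling. With scaling to total reads 7 rose and 1 fell. With the GC content and transcript length trends removed 2 rose and 3 fell, so the direction of this list depended on the treatment of the counts. WEE1, the kinase that holds CDK1 inactive, rose by 0.68 ± 0.09, and PKMYT1, which phosphorylates CDK1 as well, fell (-0.43 ± 0.11). The phosphatase subunit PPP2R2A rose (0.47 ± 0.13) and the checkpoint kinase CHEK2 fell (-0.53 ± 0.13). Of 18 other cyclins, CDKs and inhibitors, 10 rose and 2 fell. The largest rises were in CCNG2, a cyclin linked to cell cycle exit (1.22 ± 0.18), and CDK17 (0.92 ± 0.19), and the named falls were in CDK10 (-0.44 ± 0.14) and the phosphatase CDKN3 (-0.29 ± 0.11). CCNG2 was at 2.36, 1.47 and 1.81 TMM-scaled RPKM in sh-luc and at 5.01, 3.58 and 4.41 in sh-lncRNA-IIRX. These lists are described by their counts only, and no list was tested against other genes.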

How the data were processed

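RNA-seq of K562 cells was analysed from 6 libraries, 3 sh-luc and 3 sh-lncRNA-IIRX, grouped by their titles. Per the submitters' processing notes and the study's methods, base calls came from CASAVA 1.8, reads were trimmed with Trimmomatic 0.32 and mapped to hg38 with Bowtie2 2.1.0, and SAMtools 0.1.19 was used for RPKM. The authors deposited read counts per RefSeq protein accession, not normalized, for 109018 rows. RPKM values that the authors deposited matched the read counts corrected for row length and library total. The rule for reads that match several isoforms is not given in the sources used here. Row lengths are coding lengths (99.8% are multiples of 3), and isoform rows of a gene share reads, so a gene was represented by the row with the most reads. A deposited table of the authors' own comparison holds fold changes and p-values and was not used.

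Symbols were matched through RefSeq for 64.7% of rows, and gene coordinates are from RefSeq on GRCh38.p14. Rows with a mean RPKM of at least 1 (38204) were tested with the quasi-likelihood test of edgeR 4.0.16 in R 4.3.3 (glmQLFit, glmQLFTest, TMM scaling, group as the only term), with Benjamini-Hochberg adjustment over all of them and a threshold of 0.05. Alternatives used limma 3.58.1, DESeq2 1.42.0, other scalings and minimum levels, summed rows, trends on row length, or on the length and GC content of the Ensembl canonical transcript in GENCODE, fitted with mgcv 1.9.3, and fits without each library. The scripts were tested on simulated data.

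The 44 genes and the 7 other lists were chosen with earlier results of these data known, by function. Every one of the 44 is accounted for, with values per library for the 4 largest rises and falls past the threshold in each of G1/S and G2/M and for CDK1, CCNB1, MKI67, CDK4, CDK6, CDKN1B, RB1 and E2F1. Values per library of other genes, and the pairs of the ratios, were chosen after the values were seen. Of each other list at most 2 rises and 2 falls are named. Depth was 21023739 to 31481109 reads a library, and the limit from 3 reads covers counting error only.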

Additional observations from a re-analysis of the deposited data

How the results depend on the processing

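All 42 genes could be fitted under most alternatives, and 31 with a mean RPKM of at least 5. The main counts were 8 G1/S genes higher and 1 lower, and 9 G2/M genes higher and 3 lower. G1/S genes called higher numbered 4 with the minimum at a mean RPKM of 5, where CCNE1, E2F3, RB1 and CDC25A were not tested. The calls of CCND3, CDK2, CDKN1B and E2F1 held there. G1/S genes called lower numbered 3 with all accessions that had any read and 3 with the first number of the library name as a term, and 0 with limma on log2(RPKM + 0.1), 0 with limma on log2(RPKM + 1), 0 with a mean RPKM of at least 5, 0 with the row length trend removed and 0 with scaling to total reads. G2/M genes called higher numbered 15 with scaling to total reads and 15 with limma at either pseudocount, and those called lower numbered 0 under these, and 6 with the row length trend removed. With 1 library left out, these counts were 4 to 8 and 0 to 1 for G1/S and 7 to 9 and 2 to 2 for G2/M. DESeq2, and DESeq2 size factors in edgeR, each changed 1 of the 42 calls, that of E2F1. Limma on RPKM follows total reads, and the causes of the other changes were not tested.

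The replicate numbers were not taken to pair the libraries, since the deviations of same-numbered libraries correlated at 0.31, 0.08 and -0.01, and sh-luc replicate 2 correlated best with sh-lncRNA-IIRX replicate 3. The 2 replicate 1 libraries, at 0.31 with each other, correlated at -0.26 to -0.07 with replicates 2 and 3 of the other group. The main fit has no term for this. With the first number of the library name as a term, calls over all rows went from 14256 to 17924. With the replicate number as a block, 9 G1/S genes were higher (CCNE2 in addition) and 3 lower (CCND2 and CDKN2C in addition to CDK4), 11 G2/M genes were higher (MAD2L1 and TPX2 in addition) and 3 lower, and calls over all rows went from 14256 to 16831. Removing the GC content and transcript length trends, and leaving out both replicate 1 libraries, were chosen after seeing the data. The first left 13 of the 42 genes higher and 5 lower, and 6936 of 26168 rows called.

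Several log2 fold changes changed sign. Of these, CDK4 and PTTG1 were called lower in the main comparison and not called with the other sign. TOP2A was called higher with scaling to total reads and with limma. It was called lower with the row length trend, or the GC content and transcript length trends, removed. The others were called neither in the main comparison nor with the other sign. Some of them (CDKN2C, AURKB, BUB3, MAD2L1, MKI67, CENPE and CENPF) were called with their main sign under other alternatives, as given above. With scaling to total reads the changed signs were those of CDK4 at 8.3e-05, CDKN2C at 0.00153, CCNB1 at 0.0952, CCNB2 at 0.0924, CDC25C at 0.0848, AURKB at 0.0724, TOP2A at 0.19, MKI67 at 0.095, CENPE at 0.0605, CENPF at 0.072, NDC80 at 0.12 and NUF2 at 0.19. With limma on log2(RPKM + 0.1) they were CDKN2C at 0.000744, CCNB1 at 0.0962, CCNB2 at 0.0939, CDC25C at 0.0931, AURKB at 0.0725, TOP2A at 0.19, MKI67 at 0.0988, CENPE at 0.0542, CENPF at 0.0739, NDC80 at 0.12 and NUF2 at 0.19. With limma on log2(RPKM + 1) they were CDKN2C at 0.000739, CCNB1 at 0.096, CCNB2 at 0.0934, CDC25C at 0.0779, AURKB at 0.0644, TOP2A at 0.18, MKI67 at 0.0917, CENPE at 0.0466, CENPF at 0.0684, NDC80 at 0.12 and NUF2 at 0.19. With a mean RPKM of at least 5 they were CCNB1 at 0.0167, CCNB2 at 0.0131, TOP2A at 0.11, MKI67 at 0.0169, NDC80 at 0.041 and NUF2 at 0.11. With the GC content and transcript length trends removed they were CDKN2C at 0.0998, E2F2 at -0.0363, CCNB2 at 0.0384, AURKB at 0.20, BUB3 at -0.17, MAD2L1 at -0.16 and PTTG1 at 0.0297. With reads summed per gene it was TOP2A at 0.00897, and without both replicate 1 libraries CDKN2D at -0.0938 and CDC25C at 0.0237. With 1 library left out, CDKN2D ranged from -0.041 to 0.43, E2F2 from -0.044 to 0.27, TOP2A from -0.023 to 0.025 and NUF2 from -0.055 to 0.066.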
